A study of Mus musculus with 8 samples.

Results

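The 8 genes described here encode cytoplasmic actins (Actb and Actg1), alpha tubulins (Tuba1a, Tuba1b and Tuba1c), beta tubulins (Tubb5 and Tubb4b) and the intermediate filament protein vimentin (Vim). Their tag clusters, runs of nearby transcription start sites (TSSs) on 1 strand, were mapped by CAGE-seq, a method that captures capped RNA and reads the first bases of each molecule. A cluster was assigned to a gene if it lay on the gene's strand and its dominant TSS, the base with most 5' ends, fell between 500 bp upstream of the gene start and the gene's end. In wild-type E14 mouse embryonic stem cells, 37 of the 32857 clusters met this rule. In the Pwwp2a/b double knockout (DKO), 36 of 33005 did so in clone A1 and 37 of 32870 in clone C7. PWWP2A and PWWP2B are paralogous readers of the histone mark H3K36me3 found over transcribed gene bodies, and the comparison asks whether start sites at and inside these genes differ once both are lost.

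All samples were nuclear RNA, prepared from 3 E14, 2 DKO A1 and 3 DKO C7 libraries of cells grown in serum and LIF on gelatine. Both DKO lines are single clones derived from E14, so what belongs to a clone and what belongs to the knockout cannot be told apart beyond the comparison of A1 with C7. The authors merged the replicates of each line before clusters were called. The deposited values used here are positions and hold no expression level, so there is no replicate error and no test between lines, and the depth behind a single cluster is unknown. Of the embryonic stem cell markers, 8 of 8 had a promoter cluster in each line. Some markers of other cell types had promoter clusters too. Of 6 fibroblast markers, Col1a1, Col1a2 and Thy1 had them in every line and Col3a1 in both clones but not in E14, with Lum and Twist2 at 0. Of 4 primitive endoderm markers, Sox17 and Sox7 had them in every line, with Gata4 and Gata6 at 0, and of 4 neural markers, Tubb3 and Map2, with Pax6 and Neurog2 at 0. Their part in the results was not tested. Pwwp2a had 1 promoter cluster in every line and Pwwp2b had none in any line, E14 included, so cluster positions do not check the knockout.

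Actin monomers polymerize into the filaments of the cell cortex, and Actb and Actg1 encode the 2 nonmuscle isoforms. Alpha and beta tubulin form the dimer from which microtubules are built, and vimentin forms the intermediate filaments typical of mesenchymal cells. These are among the most actively transcribed genes of cultured cells, and the families include many near-identical coding sequences and processed pseudogenes. Mammalian promoters range from sharp ones, where transcription starts within a few bases and often downstream of a TATA box, to broad ones where it starts across a long stretch.

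The sequences at the main start site are shown first because they place each start on the gene. For each gene the promoter cluster nearest the annotated gene start was taken, with 15 bases before the dominant TSS and 15 from it, on the transcribed strand of mm10. Capitals mark the base before the TSS and the TSS itself. Bases of Actg1, Tuba1a, Tuba1b and Vim were read from RefSeq promoters (GRCm38.p6), those of Actb, Tuba1c and Tubb5 from GENCODE vM21 transcripts, and those of Tubb4b from both.
Actb, minus strand, chr5:142906711-142906740: gcgcaacgcgcagcCActgtcgagtcgcgt
Actg1, minus strand, chr11:120348478-120348507: gaggccgcggtcggTCtcacactccgccgc
Tuba1a, minus strand, chr15:98953537-98953566: atccgcccaagtgcCGcaggttctcttaca
Tuba1b, minus strand, chr15:98934469-98934498: ccagcgaccgcgccCGcccctccccagctg
Tuba1c, plus strand, chr15:99030306-99030335: ctggaggcggacctTAcacagcttctcccc
Tubb5, minus strand, chr17:35838218-35838247: gccggcctcttctgCCtcttagaaccttcc
Tubb4b, minus strand, chr2:25224640-25224669: agcgtcggttgtagCActctgtgcgcctgc
Vim, plus strand, chr2:13574296-13574325: tggcgttgtccagtCCtctgccactcttgc
Start sites of RNA polymerase II usually pair a pyrimidine at −1 with a purine at +1. This step was present at 5 of the 8 main promoters in E14 (62.5%, 95% Wilson interval 30.6% to 86.3%). The exceptions were Actg1, Tubb5 and Vim, where a pyrimidine was followed by C. Over sharp main promoters of protein-coding genes whose bases could be read, the share was 78.6% of 2081.

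The main promoter cluster was sharp, at 10 bp or less, at 7 of the 8 genes. Its interquantile width, the distance between quantiles 0.1 and 0.9 of the signal in the cluster, was 5 bp at Actb and 7 bp at Actg1 in E14, A1 and C7. Among the alpha tubulins, it was 3 bp at Tuba1a and Tuba1c in all lines, and 22 bp at Tuba1b in all lines. Of the beta tubulins, Tubb4b measured 4 bp in all lines and Tubb5 measured 8 bp in E14 and C7 and 9 bp in A1. Vim measured 5 bp in all lines. Tuba1b was thus the only member with a main cluster over the limit of 10 bp. Among the main clusters of the alpha tubulins, only that of Tuba1b was filled by its interquantile region. The call rests on 1 cluster of unknown depth, with its E14 dominant TSS 93 bp from the RefSeq start.

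Counting a main promoter cluster as sharp at 10 bp or less, the share of the 8 genes that were sharp was 87.5% in each line (52.9% to 97.8%). Among protein-coding genes with a promoter cluster it was 21.7% in E14, and 21.3% in each of A1 and C7. Among 78 cytosolic ribosomal protein genes, another group of highly transcribed genes, it was 62.8% in E14 (51.7% to 72.7%) and 60.3% in each clone, and these intervals overlap that of the 8 genes. The median width was 5 bp for the 8 genes in each line, 28 bp for protein-coding genes in E14 and 29 bp in each clone, and 7 bp for ribosomal protein genes in E14. The narrow core did not exclude scattered starts around it. The whole main cluster spanned 126 bp at Actb, 60 bp at Actg1 and 132 bp at Tubb5, and only Tuba1a and Tuba1c had a whole cluster of at most 10 bp.

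**Figure D1:**
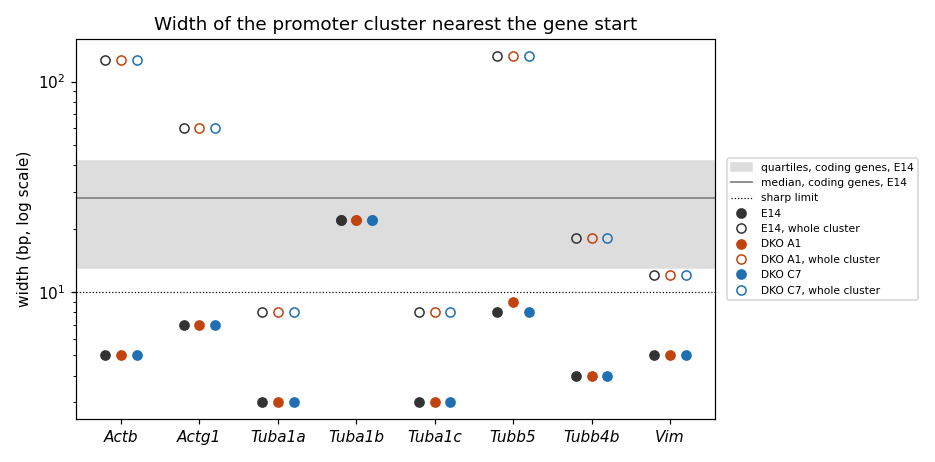
Width in bp (log scale) of the promoter cluster nearest the start of each gene in E14, DKO A1 and DKO C7, as interquantile width (filled points) and as whole cluster (open points), with the quartiles and median over protein-coding genes in E14 in grey and the limit of 10 bp dotted. At 7 genes the filled points lie at 9 bp or lower in every line, and Tuba1b lies at 22 bp, where its filled and open points coincide.

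Upstream sequence differed among the sharp members. The window from −40 to −11 of the E14 dominant TSS could be read for 7 genes, all but Actb. Capitals mark a TATA spelling, shown because it distinguishes members of the same family.
Tuba1a, minus strand, chr15:98953562-98953591: gacagagctgTATATAAggagccgcatccg
Tuba1c, plus strand, chr15:99030281-99030310: ccggccagggTATATAAgccctgtcctgga
Tubb4b, minus strand, chr2:25224665-25224694: ataagaggTATATAAAtgttggcagagcgt
Vim, plus strand, chr2:13574271-13574300: aacagtgtTATAAAagcagcgcccttggcg
Tuba1b, minus strand, chr15:98934494-98934523: cggctggcccggggaggggccgtgaccagc
Actg1, minus strand, chr11:120348503-120348532: cgctcccgcttaaatagcggcgggggaggc
The spelling TATAAA was present in the transcribed direction at Tubb4b, beginning at −30, and at Vim, beginning at −32. The spelling TATATAA, added to the search after these sequences had been seen, was present at Tuba1a and Tuba1c, beginning at −30 in both, and overlapped TATAAA at Tubb4b. Neither was present in the windows of Actg1, Tuba1b and Tubb5. Over all protein-coding genes, either spelling was found in 9.49% of 1845 sharp main promoters read (8.23% to 10.9%) and in 0.330% of 7272 broader ones. The 4 members with a match had a width of 5 bp or less, but Tuba1a and Tuba1c matched only the spelling added afterwards. Tuba1b, the alpha tubulin over the limit for sharpness, had no match, and neither had the sharp promoters of Actg1 (7 bp) and Tubb5 (8 bp in E14). The Actg1 window does hold ttaaata, which was not among the spellings searched. Whether width and spelling go together in these genes was not tested.

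Other promoter motifs were searched on both strands from 250 bases before to 50 after the RefSeq start, in 7 members and in 32851 promoters in all. Positions here are counted from that start, not from the dominant TSS. It lay 430 bp from the main dominant TSS of Tuba1c in E14, so the Tuba1c window does not hold that TSS. The distance was 93 bp at Tuba1b, 69 at Tubb5, 50 at Tuba1a, 48 at Tubb4b, 3 at Actg1 and 0 at Vim. The CCAAT box was spelled in 6 members, all but Tuba1b, against 37.4% of promoters. The GC box GGGCGG was spelled in Actg1, Tuba1a, Tuba1b, Tubb5 and Tubb4b, 5 of 7 against 35.7%. TATAAA on either strand was spelled in Tubb4b and Vim, against 13.6%. A CArG box, the element bound by serum response factor in many actin genes, was spelled in Actg1 at −90 and in no other member read, against 1.63% of promoters. A match is a description of the letters in this window and does not show binding.

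The genes differed far more in what lay downstream of the promoter. In E14, A1 and C7, Actb held 16, 15 and 17 clusters, and Tubb5 held 8, 8 and 7. Each of the others held 1 to 3 in every line: Vim 1, Actg1, Tuba1b and Tuba1c 2 each, and Tuba1a and Tubb4b 3 each. Placed on the longest coding transcript, 12 of the 37 E14 clusters lay in 5' UTR, 5 in introns, 10 in coding sequence and 10 in 3' UTR. All 10 of the 3' UTR clusters belonged to Actb (4) and Tubb5 (6). Of the 10 in coding sequence, 8 belonged to Actb, 1 to Actg1 and 1 to Tubb5. None of the 3 alpha tubulins, Tubb4b or Vim had a cluster in coding sequence or 3' UTR in any line.

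**Figure D2:**
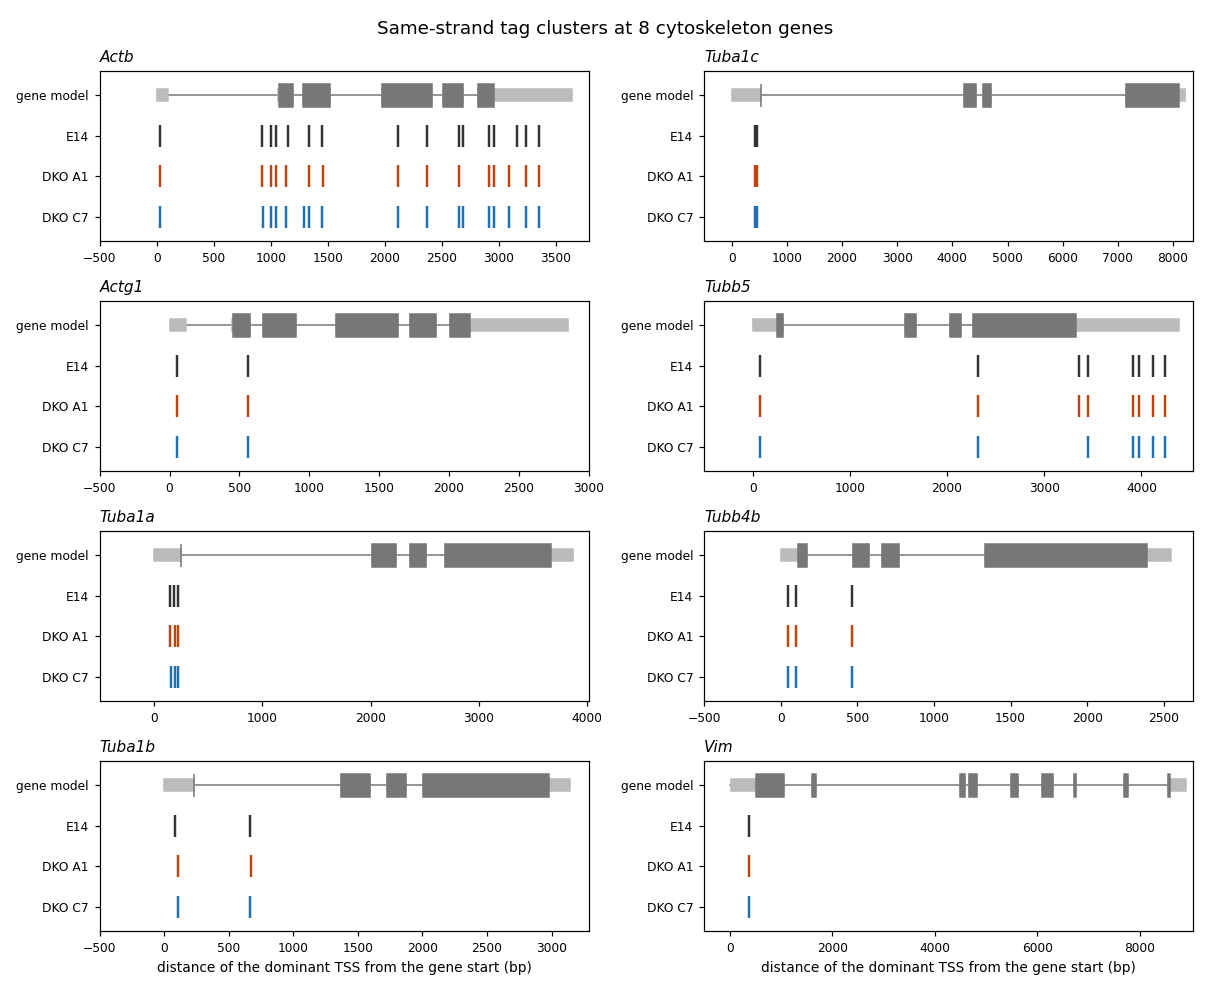
Dominant TSSs of same-strand tag clusters at the 8 genes in E14, DKO A1 and DKO C7 (vertical ticks), by distance from the annotated gene start in bp, below the longest coding transcript (coding exons dark and tall, untranslated exons pale and low, introns as a line). Actb carries clusters at its start, in its first intron, in its coding sequence and in its 3' UTR. Tubb5 carries them at its start and in its last exon, and the other genes near the start only. The layout is the same in every line but for 3 sites of Actb and Tubb5.

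Per kb of exon, which allows genes of different length to be set side by side, Actb had 5.97 clusters in E14 and Tubb5 had 2.4. Tuba1a had 1.66, Tubb4b 1.44, Tuba1b 1.07, Tuba1c 0.875, Actg1 0.752 and Vim 0.211. The median over 11161 protein-coding genes with a promoter cluster in E14 was 0.366 per kb and 1 cluster per gene. At least as many clusters as Actb were found at 0.780% of these genes, and at least as many per kb at 0.493%. For Tubb5 the corresponding shares were 3.70% and 3.32%. Vim lay at the other end per kb, since 76.0% of genes had at least as many. Its 1 cluster equalled the median per gene, however. The exons of all its annotated transcripts covered 4743 bp, against 2193 bp for the longest coding transcript.

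How these internal clusters were classed depends on the annotation. When a cluster within 500 bp of any annotated transcript start was called a promoter cluster, and otherwise exonic or intronic in that order, the 8 genes had 26 promoter, 10 exonic and 1 intronic cluster in E14. The counts were 25, 10 and 1 in A1 and 27, 9 and 1 in C7. As shares of the E14 clusters these were 70.3%, 27.0% and 2.70%, where over all E14 clusters 60.5% were promoter, 13.0% exonic and 9.27% intronic clusters. Of the 16 E14 clusters of Actb, 13 were promoter clusters by this rule, because GENCODE lists short transcripts that start inside the gene. With the gene start alone as promoter, 22 clusters of the 8 genes were exonic in E14 instead of 10. Tubb5 did not depend on it, with 7 exonic clusters in E14 and A1 and 6 in C7. At least 7 exonic clusters were found at 1.02% of protein-coding genes in E14, and any at all at 13.3%.

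Actb is transcribed from the minus strand of chromosome 5, between 142903115 and 142906754 of mm10. Its main cluster, from 142906663 to 142906788, had the dominant TSS at +29 bp from the gene start in every line, on the first base of an annotated transcript. A group of 3 clusters followed in the first intron, with dominant TSSs at +927, +1006 and +1045 in E14. The middle one was 42 bp wide, and all of it was interquantile. Its start read agtgggcagggcggCAgcggctgctcttgg on the minus strand (chr5:142905734-142905763), with the pyrimidine and purine step in capitals. Along the coding sequence, dominant TSSs lay at coding positions 86, 181, 299, 504, 762, 948, 980 and 1083 in E14. The widest coding cluster, at +2370 bp in exon 4 of 6, spanned 32 bp with an interquantile width of 32 bp in every line, and its dominant TSS did not move.

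In the 3' UTR of Actb, dominant TSSs lay 4, 203, 285 and 399 bases after the stop codon in E14. The cluster that begins next to the stop codon was 28 bp wide in every line, with interquantile widths of 28 bp in E14, 19 bp in A1 and 28 bp in C7. The widest cluster of this 3' UTR, from 142903571 to 142903670, was 100 bp wide in every line, with interquantile widths of 83, 83 and 79 bp in E14, A1 and C7. Its dominant TSS was at +3159 bp in E14 and at +3092 bp in both clones, the longest move among the 8 genes, of 67 bp. The bases around both are given because the position in the clones falls inside a run of T.
Actb at +3159, minus strand, chr5:142903581-142903610: ttaaaaactggaacGGtgaaggcgacagca
Actb at +3092, minus strand, chr5:142903648-142903677: ttttttttttttttTTttttttttttttaa
The cluster had the same bounds in all 3 lines, and whether the run bears on the move was not tested.

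Actg1, on the minus strand of chromosome 11 from 120345690 to 120348542, encodes a protein nearly identical to that of Actb but had only 1 cluster beyond the main one. It was 2 bp wide, from 120347983 to 120347984, at coding position 109 in exon 2 of 6, and it had the same dominant TSS in all 3 lines. The coding sequences of Actb and Actg1 have the same length and are 88.6% identical. Since Actg1 had only the coding cluster at position 109, few matches between the genes were possible. None of the 8 coding clusters of Actb in E14 lay within 20 bases of that position, the nearest being at 86. The 3' UTR of Actg1 held no cluster in any line, where that of Actb held 4.

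Tubb5 occupies 35833921 to 35838306 of chromosome 17, on the minus strand. Its main cluster, from 35838197 to 35838328, had the dominant TSS at +74 bp in every line. No cluster lay in its introns. One coding cluster of 2 bp, in the last exon, had its dominant TSS at +2316 bp in E14 and +2317 bp in both clones. The 6 clusters of the 3' UTR in E14 lay 29, 126, 591, 647, 798 and 914 bases after the stop codon. The widest, from 35834371 to 35834392, kept its dominant TSS at +3915 bp in all lines, while its interquantile width was 7 bp in E14 and 21 bp in both A1 and C7. This was the largest widening among the 8 genes. Tubb4b, the other beta tubulin, on the minus strand of chromosome 2 from 25222160 to 25224702, had 3 clusters at +48, +99 and +468 bp in every line and none beyond. The 2 coding sequences were 82.4% identical when laid side by side without gaps.

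**Figure D3:**
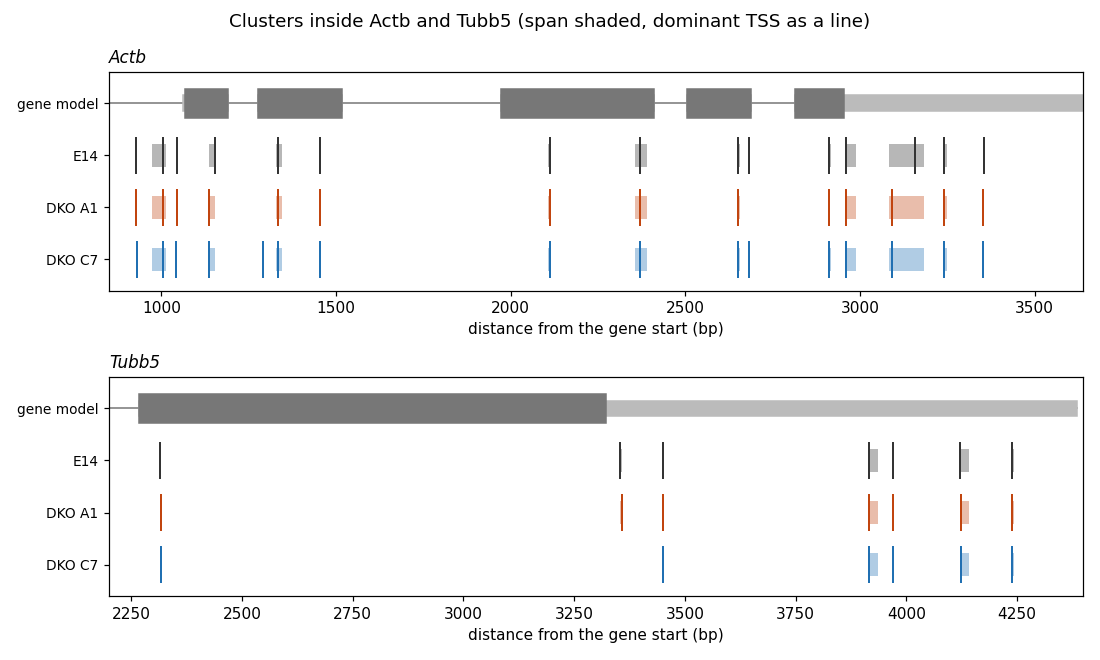
Clusters inside Actb and Tubb5 by distance from the gene start in bp, with the span of each cluster shaded and its dominant TSS as a line, in E14, DKO A1 and DKO C7, below the longest coding transcript (coding exons dark, untranslated exons pale). Most spans are the same in the 3 lines, the dominant TSS of the 100 bp cluster of Actb lies at +3159 bp in E14 and +3092 bp in the clones, and 3 small clusters are absent from 1 or 2 of the lines.

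The bases at the dominant TSSs of internal clusters differed from those at main promoters. Whether internal clusters mark initiation by RNA polymerase II was not tested. Of the 20 clusters in coding sequence and 3' UTR in E14, 2 (10.0%, 2.79% to 30.1%) had the pyrimidine and purine step, and 14 (70.0%) had G at −1. None of the 8 main promoters had G at −1. Over all 4245 exonic E14 clusters that could be read, the shares were 10.5% for the step and 72.1% for G at −1, and over sharp main promoters of protein-coding genes G stood at −1 in 7.21%. The shares of the 8 genes lay within 3 percentage points of those of exonic clusters as a whole. The widest coding cluster of Actb, the coding cluster of Actg1 and the widest 3' UTR clusters of Tubb5 are given as examples of G at −1.
Actb at +2370, minus strand, chr5:142904370-142904399: tattggcaacgagcGGttccgatgccctga
Actg1 at +559, minus strand, chr11:120347969-120347998: ccttccatcgtaggGCgcccccgacaccag
Tubb5 at +3915, minus strand, chr17:35834377-35834406: caggaagagaagggGGtggggttttccagt
Tubb5 at +4122, minus strand, chr17:35834170-35834199: ctcggagagatgggGGttgggggtgcggca

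The alpha tubulins lie close together on chromosome 15. Tuba1a, on the minus strand from 98949837 to 98953703, had 3 sharp clusters within the 5' UTR, at +152, +189 and +221 bp in E14, with interquantile widths of 3, 3 and 4 bp in all lines. The dominant TSS of the main one was at +152 bp in E14 and A1 and at +154 bp in C7, and that of the next was at +189 bp in E14 and +191 bp in both clones. Tuba1b, on the minus strand from 98931425 to 98934565, had its main cluster from 98934462 to 98934483. Its dominant TSS stood on the first base of the cluster, +82 bp, in E14 and on the last base, +103 bp, in both clones. The bases at the position used in the clones had TA across the start in place of the CG of E14.
Tuba1b at +103, minus strand, chr15:98934448-98934477: ccccagctgctactTAagaggctcggagcg
A second cluster of 4 bp lay in the first intron. Tuba1c, on the plus strand from 99029891 to 99038110, had clusters at +430 and +466 bp, the former on the first base of an annotated transcript, and both were the same in every line. Vim, on the plus strand of chromosome 2 from 13573927 to 13582826, had a single cluster from 13574304 to 13574315 with the dominant TSS at +384 bp, exactly the RefSeq start, in all lines.

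Between lines, the same sites were found with few exceptions. Of 38 sites over all lines, 35 were present in all 3. Of the E14 clusters, 94.6% (82.3% to 98.5%) overlapped a cluster of both clones. Over all E14 clusters the share was 98.8%, just above this interval. The 3 exceptions were small. A cluster of 1 bp in coding sequence of Actb, at 142905462, was found in C7 only. A cluster of 2 bp in coding sequence of Actb, from 142904071 to 142904072, was absent from A1. A cluster of 5 bp in the 3' UTR of Tubb5, from 35834949 to 35834953, was absent from C7. So no site was gained or lost in both clones. A1 was merged from 2 libraries and the others from 3, and whether depth plays a part in the absences was not tested.

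The dominant TSS lay on another base in A1 at 12 of 36 E14 clusters (33.3%, 20.2% to 49.7%) and in C7 at 11 of 36 (30.6%, 18.0% to 46.9%). Over all clusters the shares were 23.8% in A1 and 21.1% in C7, within these intervals. Over exonic clusters they were 25.4% and 22.9%. Further than 500 bp from the gene start the members' shares were 43.5% and 34.8% of 23 clusters, and within 500 bp 15.4% and 23.1% of 13, and these intervals overlap. Without Actb, the gene with most clusters, 7 of 21 moved in A1 and 6 of 20 in C7. Moves were mostly short, with a median of 2 bp in each clone, against 5 bp over all clusters and 2 bp over exonic ones. Only the main cluster of Tuba1b (21 bp) and 2 clusters of Actb (17 and 67 bp) moved by 5 bp or more.

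The dominant TSS moved in both clones at 8 of the 37 E14 clusters of the 8 genes (21.6%). Over all E14 clusters it did so at 3621 of 32857, and over exonic ones at 472 of 4260 (11.1%). Whether the 8 genes differ from the others in this share was not tested. Where the dominant TSS of the 8 genes differed from E14 in both clones, it lay on the same base in both. This held at 8 of 8 sites: Actb +1153 to +1136, +3159 to +3092 and +3355 to +3353, Tuba1a +189 to +191, Tuba1b +82 to +103, and Tubb5 +2316 to +2317, +4122 to +4123 and +4238 to +4239. Over all clusters that moved in both clones, 76.0% of 3621 did so, and over exonic ones 80.9%. Both shares lie within the Wilson interval of the 8 sites, 67.6% to 100%. These comparisons share the E14 track, and narrow clusters leave few bases to move to. The Tubb5 cluster at +2316 was 2 bp wide, so a move in both clones could only reach the same base. Those at Actb +3355 and Tuba1a +189 were 3 bp wide. Of the 23 moves, 14 (60.9%) went from an end of the cluster to the opposite end, against 46.9% over all clusters and 64.3% over exonic ones. A further 6 sites moved in 1 clone, and 21 of the 35 kept their dominant TSS in all 3 lines. No share over all clusters is set beside these counts, so they do not set the 8 genes apart. At Actg1, Tuba1c, Tubb4b and Vim every cluster had the same dominant TSS in the 3 lines.

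The interquantile region was wider than in E14 at 6 of 36 clusters in A1 (16.7%, 7.87% to 31.9%) and at 2 of 36 in C7 (5.56%, 1.54% to 18.1%). Over all clusters the shares were 20.3% in A1, within the interval of the 8 genes, and 18.5% in C7, just above it. Over exonic clusters they were 11.2% and 9.07%, within both intervals. It was narrower at 2 clusters in A1 (5.56%) and 1 in C7 (2.78%), where over all clusters the shares were 10.5% and 10.6%. At 26 of 35 sites the width was the same in the 3 lines, a count without a share over all clusters beside it. Of the 6 wider clusters in A1, 4 belonged to Tubb5, where the largest differences were the cluster at +3915 bp described above and that at +4238 bp, of 2 bp in E14 and C7 and 4 bp in A1.

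**Figure D4:**
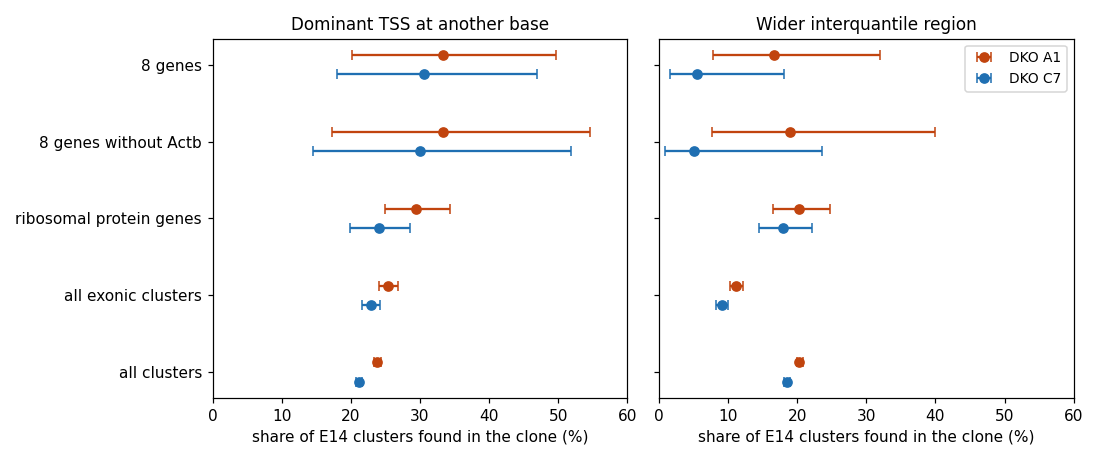
Share of E14 clusters (%) whose dominant TSS lay on another base (left) or whose interquantile region was wider (right) in DKO A1 and DKO C7, for the 8 genes, the 8 genes without Actb, ribosomal protein genes, all exonic clusters and all clusters, with 95% Wilson intervals that cover counting error only. For the 8 genes 33.3% moved in A1 and 30.6% in C7, with intervals that hold the shares over all clusters, and 16.7% and 5.56% were wider, where the share over all clusters lies within the interval in A1 and just above it in C7.

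The authors kept unique alignments alone, and the 8 genes differed in how much of their sequence is copied elsewhere. Windows of 75 bases along each longest coding transcript were searched for exact copies in transcripts of genes at other loci. In coding sequence, 90.0% of windows of Actg1 had such a copy, as did 85.8% of Tuba1b, 80.3% of Tuba1c, 69.1% of Tuba1a and 43.1% of Tubb4b. At Actb the share was 4.27%, and at Tubb5 and Vim 0. In 3' UTRs no window of any member had a copy. Actb and Tubb5, with most clusters in coding sequence and 3' UTR, had few copies or none, while Actg1, with 1 such cluster, had the highest share. The part of copies in the difference was not tested. Vim had no internal cluster although none of its windows had a copy, and the 3' UTR of Actg1 had none either. Of the E14 start sites that could be searched, 2 of 32 had a copy of the 75 bases that follow, Actb at +2651 bp in Gm15725 and Lrrc58 and Actg1 at +559 bp in the pseudogene Gm12715, and those positions are uncertain.

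**Figure D5:**
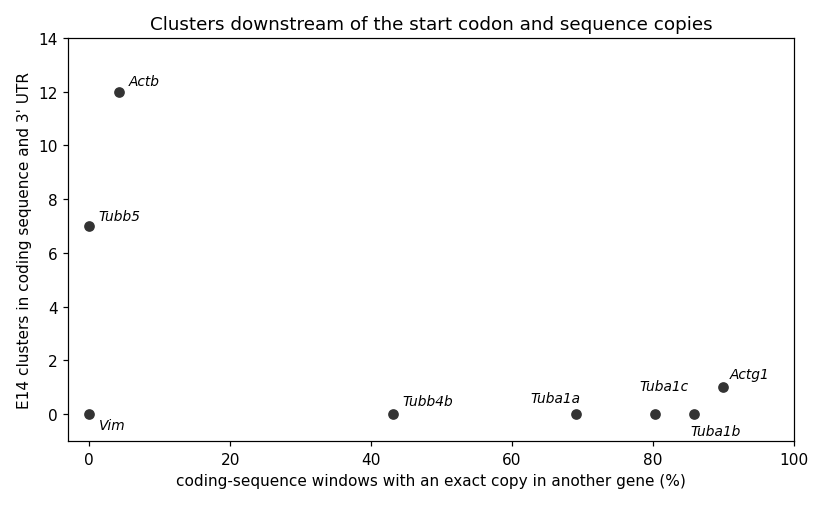
Number of E14 clusters in coding sequence and 3' UTR of each of the 8 genes against the share of its coding-sequence windows of 75 bases with an exact copy in another gene (%). Actb (12 clusters, 4.27%) and Tubb5 (7 clusters, 0%) lie at the upper left, Vim (0 clusters, 0%) at the lower left, and the alpha tubulins, Tubb4b and Actg1 at the right with 1 cluster or none.

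In a wider list of cytoskeleton genes, 60 of 68 had a cluster in E14 and 59 a promoter cluster. The main promoter was sharp at 20 of them, with a median interquantile width of 22 bp. Exonic clusters were found at 17 genes and numbered 51 in E14 and A1 and 52 in C7. Over all protein-coding genes with a promoter cluster in E14, 21.7% were sharp, the median width was 28 bp and 13.3% had an exonic cluster. Of the other 14 tubulins, 9 had a cluster and none had an exonic one in any line, and whether the groups differ was not tested. Among 20 actin regulators, 7 held exonic clusters, 27 in E14 and A1 and 28 in C7. Among 16 tubulin folding and microtubule genes, 8 held 22 in each line. The 10 further intermediate filament genes and the 8 further actins and actin-related genes held 1 each. The most were at Actn4, which crosslinks actin filaments, with 9, and at Cfl1, which severs them, and Map1b, which binds microtubules, with 8 each. Cct6a, a subunit of the chaperonin that folds actin and tubulin, and Stmn1, which binds tubulin dimers, had 4 each. These 5 genes had the same number of exonic clusters in E14, A1 and C7.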

How the data were processed

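Nuclear RNA of 8 libraries was used: 3 of E14, 2 of DKO A1 and 3 of DKO C7. The authors split the single-end reads by barcode, aligned them to mm10 with STAR 2.4.2a and used unique alignments only. Replicates of a line were pooled, power-law normalization was applied, and CAGEr called the clusters and their interquantile regions (quantiles 0.1 to 0.9). What signal a cluster needed is not given in the sources used here. The deposited clusters carry a score of 0 throughout, so no level was available, and positions (start, end, dominant TSS and blocks) were used. Because values are positions without replicates, no p-value was calculated, and Wilson intervals of 95% cover counting error only. Depth per cluster is unknown.

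Clusters were placed with GENCODE vM21 (GRCm38, the assembly of mm10; the study used a later release) in Python 3.11.15 (SciPy 1.17.1, NumPy 2.4.6), and figures were made in Matplotlib 3.10.9. Clusters of different lines were matched where they shared 1 bp or more and the strand. The main promoter cluster was the promoter cluster nearest the gene start. Named clusters were this one, the widest exonic and 3' UTR cluster of each gene and those missing from a line, and others were named after their values were seen. From the wider list, the 5 genes with most exonic clusters were named. The functions were tested on simulated data. The 8 genes, the lists and the comparisons were chosen with earlier results of these data known. Of the 8 genes, 7 matched the RefSeq promoter table. One symbol of the wider list, Myl12b, was not matched. Alternatives were the promoter window, the annotation, the strand and overlap rules, a minimum interquantile width, other limits for sharpness and movement, and, added after seeing the data, leaving out Actb and the spelling TATATAA.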

Additional observations from a re-analysis of the deposited data

How the results depend on the processing

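No paired analysis was possible because the replicates of each line were merged before clusters were called. For the same reason no replicate could be left out. Of 150 values under the alternatives, 106 stayed near the value reported, and 44 did not. With a promoter window of 100 bp, promoter clusters of the 8 genes fell to 15 in each line, exonic clusters rose to 20, 19 and 20 in E14, A1 and C7 (0.932, 0.885 and 0.932 per kb of exon, from 0.466, 0.466 and 0.419), and intronic ones to 2. With a window of 1 kb there was no intronic cluster (0 in each line). With the gene start alone as promoter there were 13 promoter, 22, 21 and 22 exonic and 2 intronic clusters. With protein-coding transcripts alone exonic clusters numbered 17, 16 and 16 (1.02, 0.958 and 0.958 per kb). An interquantile width of at least 3 bp left 4, 6 and 3 exonic clusters (0.186 per kb in E14 and 0.14 in C7). Requiring the same dominant TSS, the share present in all lines was 56.8% in E14 and C7 and 58.3% in A1. No share over all clusters is set beside these. Moves of at least 5 bp were found at 8.33% of clusters in each clone, and a widening of at least 5 bp at 2.78% in A1. Judged by the whole cluster, 2 of the 8 main promoters were sharp in each line. Every result is limited by the absence of replicates and of expression levels.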

Other observations

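Clusters on the opposite strand lay at 3 of the 8 genes, with 4 in each line. One lay 76 bp upstream of the start of Tuba1b, with its dominant TSS 6 bp from the annotated start of Gm41396, and its interquantile width was 47 bp in E14, 59 bp in A1 and 58 bp in C7. In Tubb5, 2 antisense clusters of 10 and 14 bp lay in the last exon, with dominant TSSs at +2745 bp (+2736 bp in A1) and +2650 bp from the gene start. Tubb4b had 1 of 6 bp at +1650 bp in every line. The antisense clusters inside Tubb5 and Tubb4b were over 1 kb from any annotated start on their own strand.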
